A study of Mus musculus with 10 samples.

Results

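The proteasome genes of mouse were followed across the B cell leukemias of 3 Ebf1+/- Pax5+/- (dHet) mice and 2 kinds of pro-B cell. The members were all genes whose array name begins with Psma to Psmg followed by a digit. They numbered 49 of 27191 named genes, on 80 of 41174 probes, and each gene was read from its brightest probe over 10 arrays. Of the 49, 48 were well above background on every array of at least 1 group and were tested among 14456 genes, and Psmb11 was not. Psmc3ip matches by its name, although it encodes a meiotic recombination cofactor and not a proteasome subunit, and it stays in the counts of 48.

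Lymph nodes of mice 686, 713 and 760, all Ebf1+/- Pax5+/-, gave the leukemic cells, each measured on 2 arrays. The dHet pro-B cells were Ebf1+/- Pax5+/- Rag2-/- cells from fetal liver, positive for c-Kit and cultured on OP9 feeder cells with interleukin 7, Flt3 ligand and stem cell factor, on 2 arrays. Bone marrow of control mice (Ebf1+/+ Pax5+/+) gave the wt pro-B cells by a sort of Fraction BC, on 2 arrays. Ages are not given, and whether the 2 arrays of a group hold separate RNA is not given either, so the spread between them may be technical. In the comparisons with pro-B cells each leukemia entered as the mean of its 2 arrays, except where arrays were taken singly. Those p-values measure the spread between mice together with that between pro-B arrays. The p-values between the pro-B groups and among the leukemias measure only the spread between arrays. Leukemias differed from dHet pro-B cells also in Rag2, tissue and culture, and from wt pro-B cells in genotype and tissue, and these cannot be told apart from leukemia. The pro-B groups differed from each other in Ebf1 and Pax5 genotype, tissue and culture, and Rag2-/- is given only for dHet cells. These differences cannot be told apart either. The RNA is from bulk cells, in which more cells of a type and more RNA per cell cannot be told apart.

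The proteasome is the chamber in which cells cut up proteins marked with ubiquitin. Its barrel has outer rings of alpha subunits (Psma genes) and inner rings of beta subunits (Psmb genes), and its caps hold the ATPases that unfold a protein (Psmc) and the subunits that bind it and remove its ubiquitin (Psmd). Of the beta subunits, Psmb5, Psmb6 and Psmb7 cut. In lymphoid cells and under interferon gamma, Psmb8, Psmb9 and Psmb10 take their places and give the immunoproteasome, whose products suit presentation on MHC class I. Psme1 and Psme2 form an interferon-induced cap that opens the barrel, and the Psmg genes encode chaperones that assemble it.

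A probe has to tell an inducible subunit from its relative, so the probes of Psmb8 and Psmb5 and of Psmb9 and Psmb6 are shown, with the bases that the best ungapped alignment shares in capitals. Within the 50 aligned bases, 31 were shared between Psmb8 and Psmb5 (62%), with 8 the longest shared run. Psmb9 and Psmb6 shared 27 of 48 aligned bases (56.2%), with 7 the longest run. All are 60 bases long, written 5′ to 3′ as on the array. In mm9 coordinates the probe of Psmb8 lies at chr17:34337771-34337830, that of Psmb5 at chr14:55233161-55233220, that of Psmb9 at chr17:34319174-34319233 and that of Psmb6 at chr11:70341014-70341073.
Psmb8: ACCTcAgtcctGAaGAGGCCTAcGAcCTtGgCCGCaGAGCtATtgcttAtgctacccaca
Psmb5: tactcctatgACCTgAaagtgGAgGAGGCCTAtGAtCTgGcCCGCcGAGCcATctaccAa
Psmb9: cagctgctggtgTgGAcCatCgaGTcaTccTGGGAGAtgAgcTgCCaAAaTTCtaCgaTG
Psmb6: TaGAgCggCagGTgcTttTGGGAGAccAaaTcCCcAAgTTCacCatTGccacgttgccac

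Levels are log2 processed intensities relative to the 75th percentile of their array, so 0 is that percentile, and a level compares arrays for 1 probe and not 1 probe with another. Per array, 35.7% to 52.4% of probes were well above background, lowest in replicate 1 of leukemia 686, and no spot was saturated. Replicate 1 of each leukemia was on slide 1, scanned on day 1. Replicate 2 was on slide 2 and the 4 pro-B arrays on slide 3, both scanned on day 2. Slide and group therefore cannot be told apart between leukemias and pro-B cells, but scan day can be held equal. Ebf1, the targeted gene that is present on every array, had levels of 1.56 to 2.30 in leukemias, 2.84 and 2.89 in dHet pro-B cells and 3.11 and 2.99 in wt pro-B cells. Pax5, the other one, was well above background on both arrays of leukemia 713, on none of leukemias 686 and 760, and on all 4 pro-B arrays. Of 9 B lineage markers, 8 or 9 were well above background on each leukemia array and 9 on each pro-B array.

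RNA of nearly all proteasome genes stood higher in leukemic than in wt pro-B cells. Of the 48 genes, 44 were called higher and 1, Psme4, lower (limma, adjusted p under 0.05), where 58.7% of all genes tested were called, 31.2% higher and 27.5% lower. The median change was 0.98 on the log2 scale, against 0.06 over all genes. It moved with the scaling, to 0.61 with scaling on all-detected probes (-0.30 over all genes) and to 1.55 with array median scaling (0.63 over all genes, with 44% of all genes called higher and 15.8% lower). The genes without a call were Psmb10, Psmd10 and Psma8. The 6 leukemia arrays all lay above both wt arrays for 45 of the 48 genes, as 31.9% of all genes did.

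Against dHet pro-B cells, 33 of 48 genes were called higher and 1, again Psme4, lower, where 46.1% of all genes were called, 21.7% higher and 24.4% lower. The median change was 0.76, against -0.06 over all genes. Whether the median was smaller than against wt depended on the scaling, with 0.63 against dHet and 0.65 against wt under quantile normalization, and 0.62 and 0.61 with scaling on all-detected probes. The 2 comparisons share the leukemia arrays. Without either dHet array, 20 genes were called higher than in dHet pro-B cells, where 10.9% of all genes were called higher without replicate 1 and 10.7% without replicate 2.

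With only the leukemia arrays of scan day 2, 40 genes were higher and 1 lower than in wt pro-B cells, with a median of 0.81, where 28.2% of all genes were called higher and 27% lower. Against dHet pro-B cells 27 were higher and 1 lower, with a median of 0.45, where 19% of all genes were called higher and 25% lower. All 40 and all 27 were also called over all arrays. With slide as a random block the higher calls were 30 against wt (20.6% of all genes) and 14 against dHet pro-B cells (12.9%). The replicate 1 arrays read higher than the replicate 2 arrays for 34 of 48 proteasome genes in leukemia 686, 42 in leukemia 713 and 44 in leukemia 760, with medians of 0.17, 0.40 and 0.45. Over all genes, 55.8%, 65.6% and 62.5% read higher in replicate 1 in these mice.

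**Figure D1:**
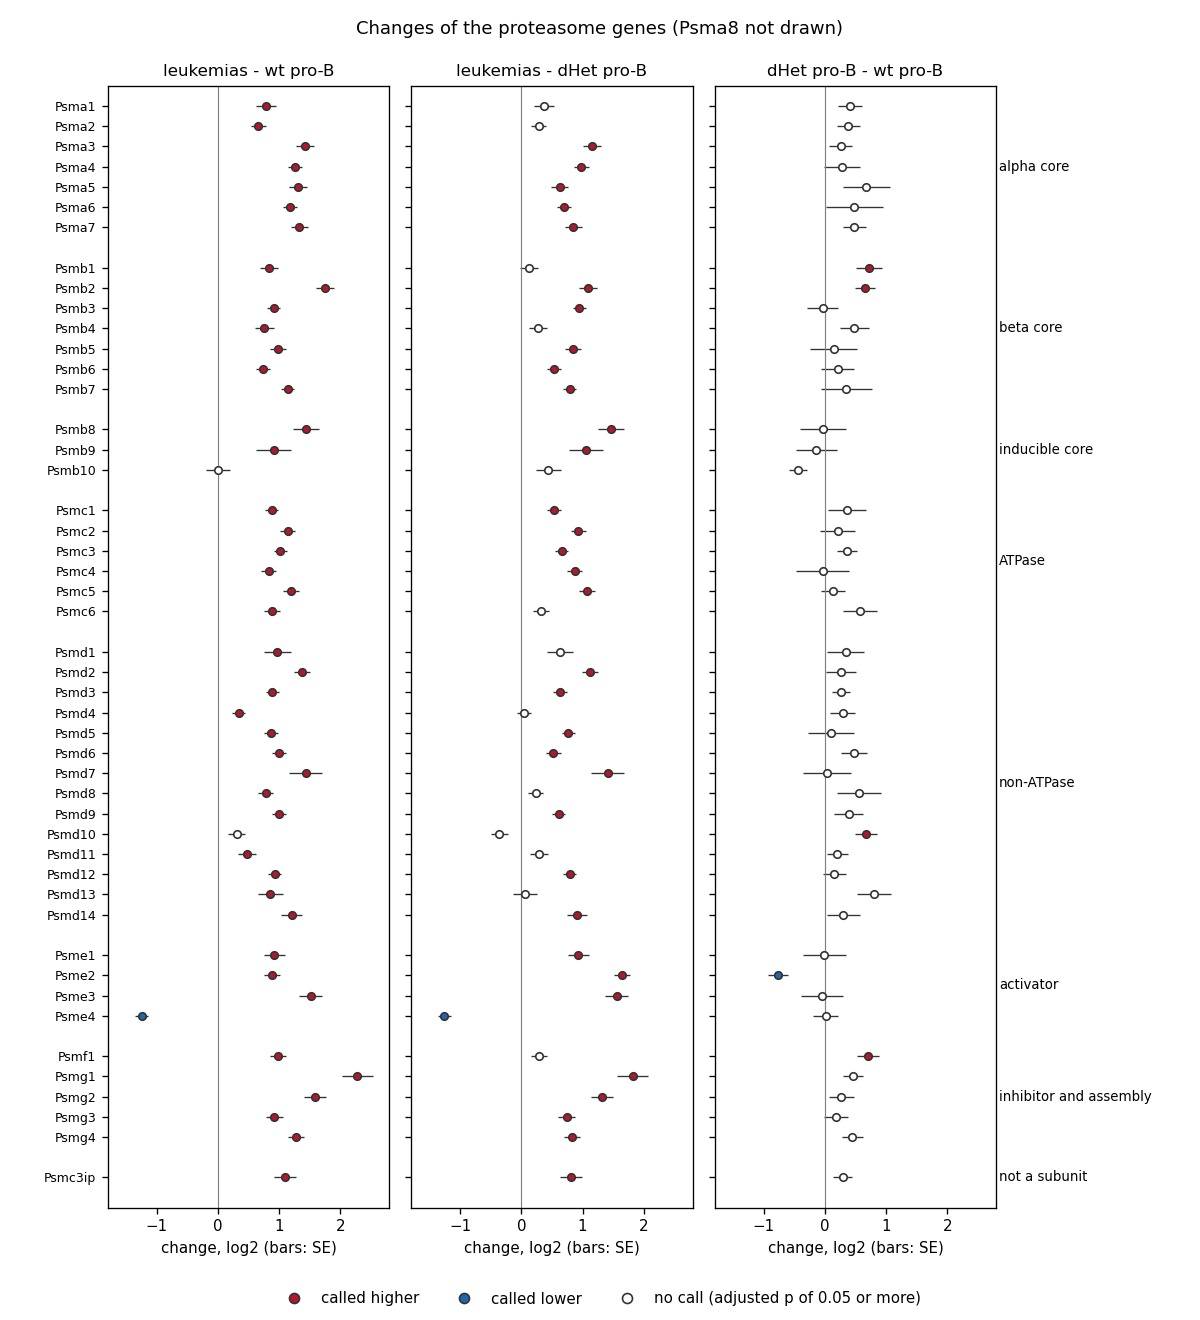
Changes of 47 proteasome genes on the log2 scale, grouped by role, for leukemias minus wt pro-B, leukemias minus dHet pro-B and dHet pro-B minus wt pro-B. Points are limma estimates, bars their SE, red called higher, blue called lower and white no call. In the first panel 44 genes lie to the right and are called, Psmb10 sits at 0.00, and Psme4 stands alone to the left at -1.25.

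**Figure D2:**
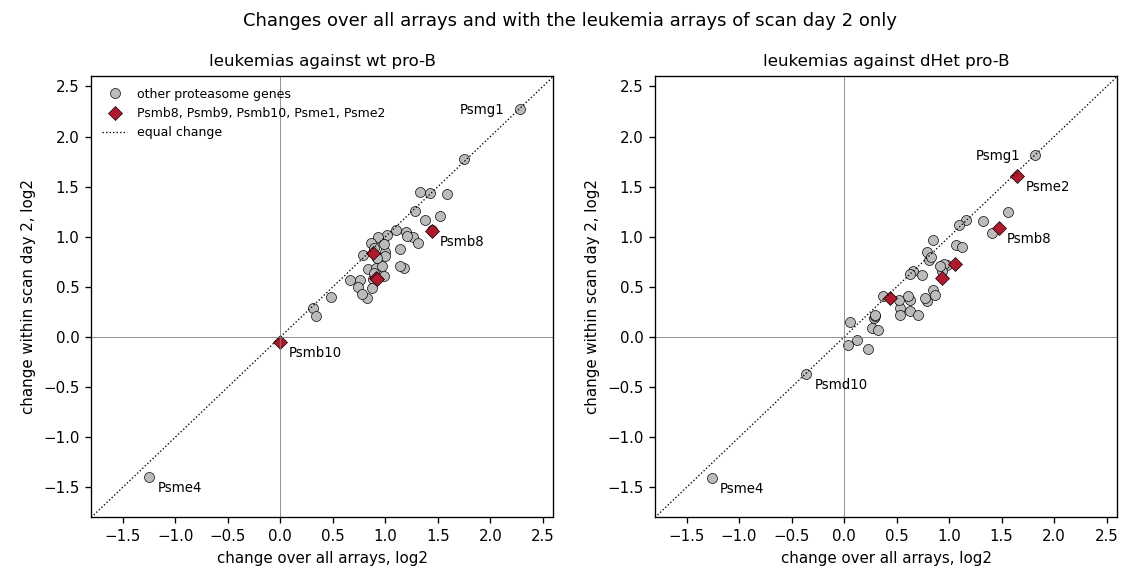
Each point is a gene, with its change over all arrays on the x axis and its change with only scan day 2 arrays on the y axis, both log2, for leukemias against wt pro-B (left) and against dHet pro-B (right). Psmg1 and Psme4 lie near the line of equal change or beyond it, and Psmb8 below it, at 1.06 within the day against 1.44 over all arrays.

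All 14 constitutive core genes were higher in leukemias than in wt pro-B cells, and 10 of 14 were higher than in dHet pro-B cells, with medians of 1.06 and 0.74. Psmb2, a beta subunit without a catalytic role, changed most of the 14 against wt. Against dHet pro-B cells Psma3 (1.16) changed more. Its level was 2.16 to 2.49 in leukemias, with a median of 2.44, 1.21 and 1.34 in dHet pro-B cells, and 0.52 and 0.71 in wt pro-B cells. The leukemias did not overlap either pro-B group, and the dHet arrays lay between the other 2 groups. Psmb2 was 3.38-fold above wt (log2 1.75 ± 0.15 SE, adjusted p = 0.000501) and 2.14-fold above dHet pro-B cells (log2 1.09 ± 0.15 SE, adjusted p = 0.00333).

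Of the alpha ring, which gates the barrel, all 7 common subunits were higher than in wt cells, by 0.66 (Psma2) to 1.43 (Psma3) on the log2 scale. Psma3 had levels of 3.89 to 4.38 in leukemias, 3.0 and 2.89 in dHet pro-B cells, and 2.59 and 2.78 in wt pro-B cells. It was 2.69-fold above wt and 2.24-fold above dHet pro-B cells, again without overlap, although a further probe of it went the other way, as given later. Psma7 had levels of 6.20 to 6.73 in leukemias, 5.67 and 5.63 in dHet pro-B cells, and 5.11 and 5.24 in wt pro-B cells. It was 2.52-fold above wt and 1.81-fold above dHet pro-B cells, with no overlap of arrays. Its second probe gave 0.33 ± 0.19 and 0.55 ± 0.19, neither called. Psma5 (2.48-fold above wt) and Psma4 (2.40-fold) followed. Psma1 and Psma2 were not called against dHet pro-B cells, at 0.37 ± 0.16 and 0.28 ± 0.12 (SE). Of the beta ring, Psmb1 and Psmb4 were not called against dHet pro-B cells, at 0.12 ± 0.15 and 0.27 ± 0.15.

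The 3 cutting subunits of the constitutive barrel were all higher in leukemias. Psmb5, which cuts after hydrophobic residues, had levels of 5.63 and 5.06 in leukemia 686, 5.68 and 4.96 in 713, 6.0 and 5.02 in 760, 4.59 and 4.49 in dHet pro-B cells, and 4.34 and 4.47 in wt pro-B cells. Psmb7, which cuts after basic residues, had levels of 4.87 and 4.04 in leukemia 686, 4.75 and 3.94 in 713, 4.92 and 4.03 in 760, 3.64 on both dHet arrays, and 3.27 and 3.30 in wt pro-B cells. In both, the replicate 1 array of each leukemia was the higher one, and no leukemia array reached down to the pro-B arrays. Psmb5 was 1.98-fold and Psmb7 2.20-fold above wt over all arrays (log2 0.99 ± 0.13, adjusted p = 0.00161, and 1.14 ± 0.11, adjusted p = 0.000739). Within scan day 2 these changes were 0.61 and 0.71, still called. With slide as a random block the call of Psmb5 against wt was lost (adjusted p = 0.064), as were the calls of Psmb5 (adjusted p = 0.123) and Psmb7 (adjusted p = 0.135) against dHet pro-B cells. Psmb6, which cuts after acidic residues, changed least of the 3, at 0.74 ± 0.11 against wt (adjusted p = 0.0028) and 0.53 ± 0.11 against dHet pro-B cells (adjusted p = 0.013). Within scan day 2 its change against dHet pro-B cells was 0.29 and no longer called. The call of Psmb6 was lost in 4 alternatives against wt and in 10 against dHet pro-B cells.

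The 3 inducible subunits did not move alike. Psmb8, the counterpart of Psmb5, had levels of 6.23 and 5.47 in leukemia 686, 6.81 and 6.09 in 713, 6.85 and 6.03 in 760, 4.75 and 4.80 in dHet pro-B cells, and 4.78 and 4.83 in wt pro-B cells. Every leukemia array was above every pro-B array, and both pro-B groups overlapped. The change was 2.71-fold against wt (log2 1.44 ± 0.21, adjusted p = 0.00264) and 2.77-fold against dHet pro-B cells (log2 1.47 ± 0.21, adjusted p = 0.00399). Its second probe gave 1.58 ± 0.19 and 1.48 ± 0.19.

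Psmb9, the counterpart of Psmb6 and encoded beside Psmb8 and the peptide transporter gene Tap1 on chromosome 17, had levels of 5.32 and 4.84 in leukemia 686, 6.27 and 5.53 in 713, 6.26 and 5.52 in 760, 4.49 and 4.64 in dHet pro-B cells, and 4.63 and 4.79 in wt pro-B cells. All leukemia arrays were the higher ones, with replicate 2 of leukemia 686 closest to the pro-B cells. The change was 0.91 ± 0.28 against wt (adjusted p = 0.0335) and 1.06 ± 0.28 against dHet pro-B cells (adjusted p = 0.0263). Within scan day 2 it was 0.59 ± 0.24 (adjusted p = 0.088) and 0.73 ± 0.24 (adjusted p = 0.056). The call against wt was also lost without either pro-B replicate of either kind, without replicate 1 of leukemia 686, and without leukemia 713 or 760, at adjusted p between 0.0619 and 0.155. The change against wt was 0.45 with quantile normalization (adjusted p = 0.196), 0.48 with the authors' value table (adjusted p = 0.125) and 0.55 with scaling on all-detected probes (adjusted p = 0.124). In all, the call of Psmb9 was lost in 13 alternatives against wt and in 9 against dHet pro-B cells.

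Psmb10, the counterpart of Psmb7, was not above wt pro-B cells. Its levels were 6.11 and 6.05 in leukemia 686, 6.48 and 6.40 in 713, 6.80 and 6.63 in 760, 6.02 and 5.93 in dHet pro-B cells, and 6.39 and 6.44 in wt pro-B cells. The leukemias fell on both sides of the wt arrays and all lay above the dHet arrays. The change was 0.00 ± 0.20 against wt (adjusted p = 0.999) and 0.44 ± 0.20 against dHet pro-B cells (adjusted p = 0.128).

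**Figure D3:**
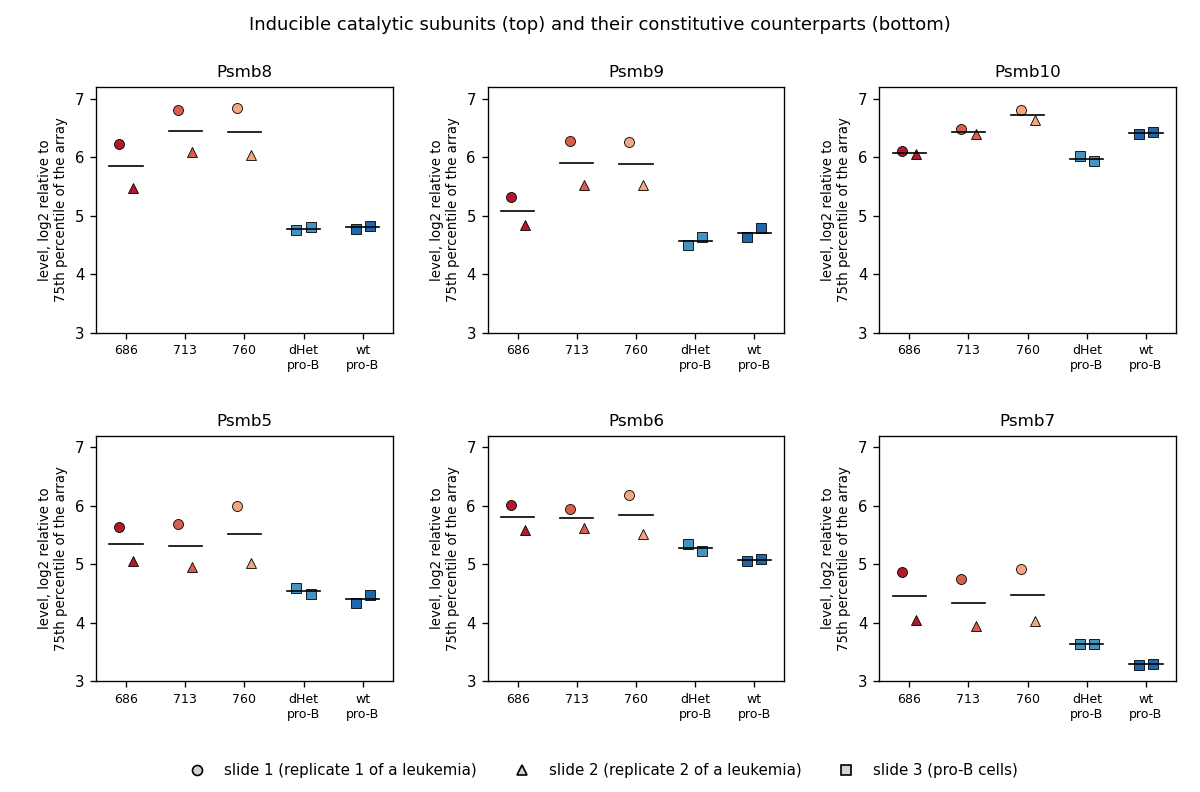
Levels of the inducible cutting subunits (top) and their constitutive counterparts (bottom) on each array, log2 relative to the array's 75th percentile, for leukemias 686, 713 and 760, dHet pro-B and wt pro-B cells. Symbols give the slide and lines the mean of 2 arrays. Leukemia arrays lie above all pro-B arrays in every panel except that of Psmb10, where wt arrays at 6.39 and 6.44 lie within the leukemia range of 6.05 to 6.80.

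An inducible subunit minus its counterpart on the same array shows a shift between the RNA of the 2 genes without any scaling of arrays. The size of the difference on 1 array has no meaning, because 2 probes are involved. Protein and assembled barrels were not measured. For Psmb8 minus Psmb5 the shift was 0.45 ± 0.21 in leukemias against wt (adjusted p = 0.108) and 0.62 ± 0.21 against dHet pro-B cells (adjusted p = 0.054). For Psmb9 minus Psmb6 it was 0.17 ± 0.28 (adjusted p = 0.619) and 0.53 ± 0.28 (adjusted p = 0.168). For Psmb10 minus Psmb7 it was -1.14 ± 0.20 against wt (adjusted p = 0.00517) and -0.35 ± 0.20 against dHet pro-B cells (adjusted p = 0.212), so in this fit 1 pair passed, against wt, towards the constitutive subunit. On single arrays Psmb10 minus Psmb7 was 1.24 and 2.01 in leukemia 686, 1.72 and 2.47 in 713, 1.88 and 2.61 in 760, 2.38 and 2.29 in dHet pro-B cells, and 3.12 and 3.13 in wt pro-B cells. The wt arrays were the highest, and the 3 replicate 1 arrays the lowest. Within scan day 2 the shift against wt was -0.77 (adjusted p = 0.0216). The mean of the 3 pairs moved by -0.17 ± 0.22 against wt (adjusted p = 0.535) and 0.27 ± 0.22 against dHet pro-B cells (adjusted p = 0.358).

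Without leukemia 686 the mean of the pairs moved by 0.04 against wt, with the sign turned, and by 0.47 against dHet pro-B cells (adjusted p = 0.0351). With scan day as a block the shifts against dHet pro-B cells were called, at 0.61 for Psmb8 minus Psmb5 (adjusted p = 0.00462), 0.44 for Psmb9 minus Psmb6 (adjusted p = 0.0293) and 0.36 for the mean (adjusted p = 0.0144). In that fit Psmb8 minus Psmb5 was also called against wt, at 0.45 (adjusted p = 0.013). Within scan day 2, fitted by mouse, the same shifts were not called, at an adjusted p of 0.0862 for Psmb8 minus Psmb5, 0.203 for Psmb9 minus Psmb6 and 0.237 for the mean against dHet pro-B cells, and 0.162 for Psmb8 minus Psmb5 against wt.

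**Figure D4:**
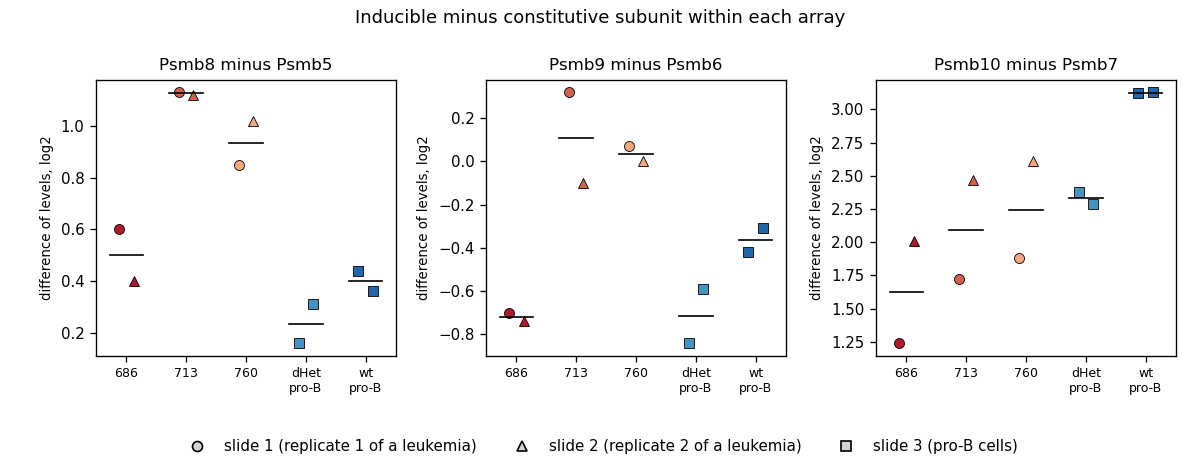
Difference of levels between each inducible subunit and its constitutive counterpart on each array, log2, for the 5 groups, with symbols for the slide and lines for the mean of 2 arrays. The zero of each axis has no meaning, since 2 probes are subtracted. The mean of leukemia 686 lies below those of leukemias 713 and 760 in all 3 panels.

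In the regulatory caps, all 6 ATPases were higher in leukemias than in wt pro-B cells, by 0.83 (Psmc4) to 1.20 (Psmc5), and 5 of 6 were higher than in dHet pro-B cells, without Psmc6 at 0.32 ± 0.13. Psmc5 had levels of 3.76 to 4.38 in leukemias, with a median of 4.11, 3.03 and 3.04 in dHet pro-B cells, and 2.92 and 2.89 in wt pro-B cells. It was 2.30-fold above wt and 2.10-fold above dHet pro-B cells. Psmc2 followed at 2.21-fold and 1.91-fold, and Psmc3ip, the meiotic cofactor, was 2.15-fold and 1.75-fold higher. A further probe of Psmc2 went the other way against wt, as given later.

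Of the 14 other cap genes, 13 were higher than in wt cells and 8 higher than in dHet pro-B cells, with medians of 0.91 and 0.62. Psmd7, the structural partner of the deubiquitinase Psmd14, had levels of 5.16 and 4.04 in leukemia 686, 3.96 and 3.45 in 713, 4.53 and 3.95 in 760, 2.82 and 2.72 in dHet pro-B cells, and 2.74 on both wt arrays. The leukemias were spread over more than a log2 unit and all lay above the pro-B cells. Its change was 2.72-fold against wt (log2 1.44 ± 0.27, adjusted p = 0.00567). A further probe of Psmd7 gave 1.41 ± 0.15 against wt, and another -0.01 ± 0.14, not called. Psmd2, a scaffold that binds ubiquitin receptors, was 2.6-fold above wt and Psmd14 itself 2.31-fold. Psmd4, a ubiquitin receptor, had the smallest called change against wt, at 0.34 ± 0.11 (adjusted p = 0.0427), and lost its call within scan day 2. A further probe each of Psmd14 and Psmd4 went the other way against wt, as given later. Psmd10, known as gankyrin and a chaperone of cap assembly, was the exception, at 0.31 ± 0.14 against wt (adjusted p = 0.113) and -0.36 ± 0.14 against dHet pro-B cells (adjusted p = 0.0908).

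The activators held the single fall. Psme4, a large nuclear cap tied to DNA repair and sperm development, had levels of 4.18 and 4.13 in leukemia 686, 4.34 and 3.85 in 713, 4.32 and 3.98 in 760, 5.42 and 5.38 in dHet pro-B cells, and 5.43 and 5.33 in wt pro-B cells. Every leukemia array was below every pro-B array, while the dHet and wt arrays overlapped. It was 2.38-fold lower than in wt (log2 -1.25 ± 0.11, adjusted p = 0.00056) and 2.40-fold lower than in dHet pro-B cells (log2 -1.26 ± 0.11, adjusted p = 0.00104). All 4 of its kept probes were called lower against wt, from -0.94 to -2.75, and 3 of 4 against dHet pro-B cells. The call held in each alternative run, with changes of -0.68 to -1.79 against wt and -1.05 to -1.44 against dHet pro-B cells.

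The interferon-type activators Psme1 and Psme2, neighbours on chromosome 14, were both higher in leukemias. Psme2 had levels of 6.46 and 6.54 in leukemia 686, 6.69 and 6.55 in 713, 6.85 and 6.65 in 760, 4.97 on both dHet arrays, and 5.72 and 5.76 in wt pro-B cells. The 3 sets did not overlap, with dHet pro-B cells lowest. Psme2 was 1.84-fold above wt (log2 0.88 ± 0.13, adjusted p = 0.00233) and 3.15-fold above dHet pro-B cells (log2 1.65 ± 0.13, adjusted p = 0.000803), and its second probe gave 1.12 and 1.75. With quantile normalization the change against wt was 0.40 (adjusted p = 0.0523). A copy of Psme2 on chromosome 11, Psme2b, could share its probes, which was not tested.

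Psme1, its partner, had levels of 6.40 and 5.87 in leukemia 686, 6.66 and 6.02 in 713, 7.05 and 6.20 in 760, 5.47 and 5.40 in dHet pro-B cells, and 5.45 on both wt arrays. Here both pro-B groups read alike and the leukemias higher, by 0.92 ± 0.17 against wt (adjusted p = 0.00576) and 0.93 ± 0.17 against dHet pro-B cells (adjusted p = 0.00796). Both calls were lost with the slide block, at adjusted p = 0.0561 and 0.0721. Psme3, which forms a nuclear cap of its own and is not interferon-induced, had levels of 1.47 to 2.48 in leukemias, 0.38 and 0.16 in dHet pro-B cells, and 0.51 and 0.12 in wt pro-B cells. It was 2.86-fold above wt and 2.96-fold above dHet pro-B cells, without overlap.

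**Figure D5:**
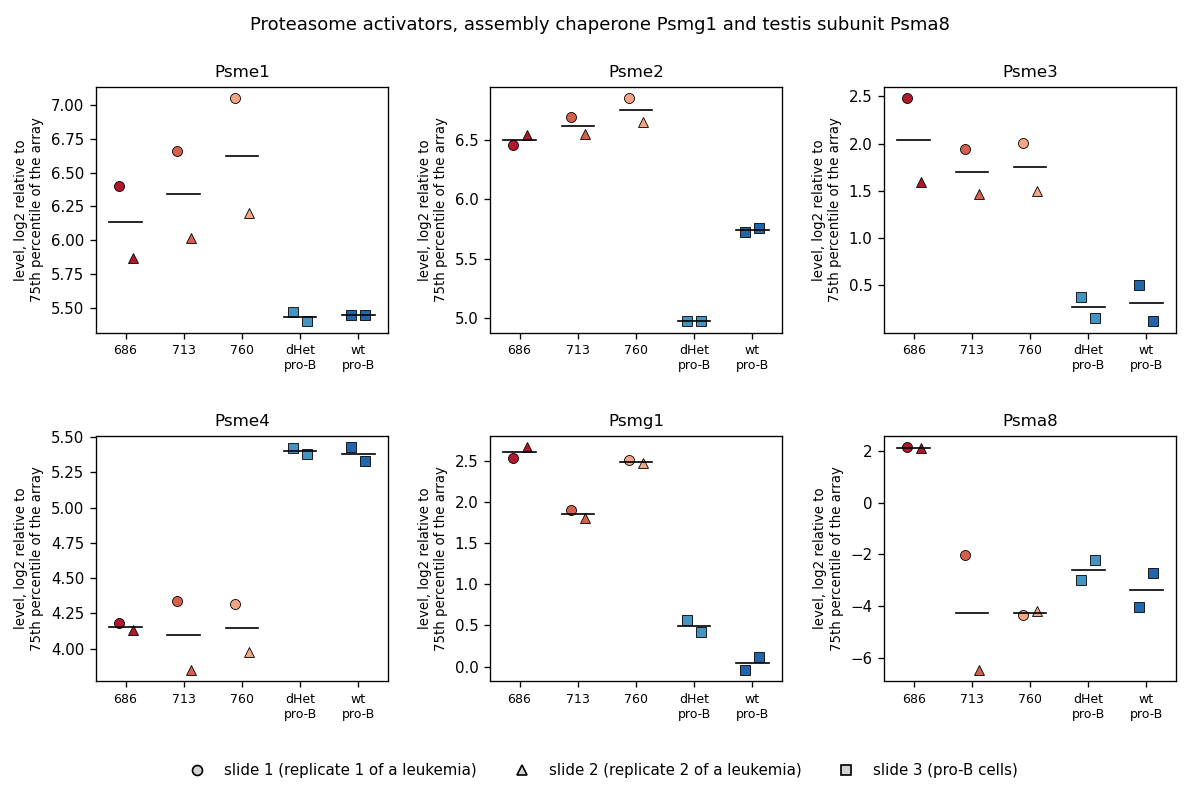
Levels of the activators Psme1 to Psme4, the assembly chaperone Psmg1 and the testis subunit Psma8 on each array, log2 relative to the array's 75th percentile, with symbols for the slide and lines for the mean of 2 arrays. The axes differ between panels. Psme4 is lower in all 6 leukemia arrays (3.85 to 4.34) than in the pro-B arrays (5.33 to 5.43), and Psma8 stands out in leukemia 686 at 2.17 and 2.11.

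Of all 48 genes, the assembly chaperone Psmg1 changed most. With Psmg2 it builds the alpha ring. Its levels were 2.54 and 2.67 in leukemia 686, 1.90 and 1.81 in 713, 2.51 and 2.47 in 760, 0.57 and 0.42 in dHet pro-B cells, and -0.04 and 0.12 in wt pro-B cells. The change was 4.85-fold against wt (log2 2.28 ± 0.25, adjusted p = 0.000981) and 3.53-fold against dHet pro-B cells (log2 1.82 ± 0.25, adjusted p = 0.00335). Leukemia 713 was the lowest leukemia and still above all pro-B arrays, and the change against wt was the same within scan day 2 to the second decimal. Psmg2 was 3.01-fold and 2.50-fold higher, and Psmg4, of the other chaperone pair, 2.43-fold and 1.77-fold. All 5 genes of this class, which includes the inhibitor Psmf1, were higher than in wt cells and 4 higher than in dHet pro-B cells, without Psmf1 at 0.29 ± 0.13. A further probe of Psmf1 went the other way against wt, as given later.

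The barrel holds a pair of subunits known from a restricted tissue. Psmb11, the subunit of cortical thymic epithelium, was well above background on 0 of 10 arrays, with levels of -6.95 to -4.25 in leukemias, -5.31 and -6.24 in dHet pro-B cells, and -5.73 and -5.23 in wt pro-B cells. Psma8, the testis form that takes the place of Psma7, had levels of 2.17 and 2.11 in leukemia 686, -2.03 and -6.48 in 713, -4.36 and -4.21 in 760, -2.99 and -2.22 in dHet pro-B cells, and -4.02 and -2.72 in wt pro-B cells. Only leukemia 686 lay above the 75th percentile. It was well above background on 6 arrays, namely both of leukemia 686, replicate 1 of leukemia 713, both of dHet pro-B and replicate 2 of wt pro-B. Leukemia 686 was at least 69.5-fold above leukemia 760, where neither array was above background. This bound sets the mean of 686 against, per array of 760, the higher of the probe's own level and the lowest level well above background. Averaged over the 3 mice, Psma8 was not called against either pro-B group, at 1.24 ± 2.04 and 0.48 ± 2.04.

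Among the 3 leukemias, 2 of 48 proteasome genes differed (F test of limma over 10 arrays), where 16.3% of all genes did. These were Psma8 (adjusted p = 0.017) and Psmg1 (adjusted p = 0.0315), which was lowest in leukemia 713. Psmb9 minus Psmb6 differed as well (adjusted p = 0.0428), at -0.70 and -0.74 in leukemia 686, 0.32 and -0.10 in 713, and 0.07 and 0.00 in 760. Each leukemia has an array on slide 1 and an array on slide 2, and with slide as a block 10 genes differed, where 36.8% of all genes did. In that fit Psmb8 was lower in leukemia 686 by -0.60 than in 713 and by -0.59 than in 760 (adjusted p = 0.0057), and Psmb9 by -0.82 and -0.81 (adjusted p = 0.0057). Psmb10 was lower in 686 by -0.36 than in 713 and by -0.64 than in 760 (adjusted p = 0.00878). Psme1 was lower in 686 by -0.20 and -0.49 (adjusted p = 0.0397). The other 6 were Psmg1, Psma8, Psmd1, Psmd7, Psmg2 and Psmc3ip, of which Psmd1 is named for this count, after its values were seen.

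Between the pro-B groups, dHet cells were higher than wt cells for 4 of 48 genes and lower for 1, where 31.6% of all genes were called, 16.7% higher and 14.9% lower. Genotype, tissue and culture differ together in this comparison and cannot be told apart. Psmb1 had levels of 5.42 and 5.35 in dHet pro-B cells and 4.59 and 4.74 in wt pro-B cells (log2 0.72 ± 0.21, adjusted p = 0.0411). Psmb2 (0.66 ± 0.16), the inhibitor Psmf1 (0.70 ± 0.18) and Psmd10 (0.67 ± 0.18) were the others. Psme2 was the lower one, at -0.77 ± 0.16 (adjusted p = 0.0101), and its second probe at -0.63 ± 0.19. The median change was 0.29, against 0.13 over all genes, and the arrays did not overlap for 37 genes in the upward and 3 in the downward direction, as for 48.5% and 35.5% of all genes. None of the 3 inducible subunits was called by limma, with 1 at an unadjusted p under 0.05, Psmb10, lower in dHet cells by -0.44 ± 0.15 (adjusted p = 0.0673). Psmb8 changed by -0.03 ± 0.38 and Psmb9 by -0.14 ± 0.34.

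All 5 calls between the pro-B groups were lost when any 1 of the 4 pro-B arrays was left out, with 2 to 6 higher and 1 lower at an unadjusted p under 0.05. The median moved with the scaling, to 0.05 with quantile normalization (0.05 over all genes) and to 0.65 with array median scaling (0.48 over all genes). With slide as a block, which takes the slide spread of the leukemias out of the error, 19 genes were higher (31.8% of all genes) and 2 lower (22.9%), Psme2 and Psmb10 (-0.44 ± 0.09, adjusted p = 0.00957). In that fit Psmb10 minus Psmb7 was lower in dHet cells, by -0.79 ± 0.09 (adjusted p = 0.00089).

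Further probes did not always follow the brightest one. Of 27 further kept probes of 21 genes, all belonged to genes called against wt, and 18 were called in the same direction, 5 in the opposite one and 4 not called. The opposite ones were a probe each of Psma3 (-1.60 ± 0.15), Psmc2 (-1.0 ± 0.24), Psmd14 (-2.50 ± 0.39), Psmd4 (-1.34 ± 0.16) and Psmf1 (-1.34 ± 0.42), named here after their values were seen. Another probe of Psmd14 gave 1.51 ± 0.12. Those not called were a probe each of Psma7 (0.33 ± 0.19), Psmd7 (-0.01 ± 0.14), Psmd11 (-0.67 ± 0.38) and Psmf1 (-0.36 ± 0.13). They, too, are named after their values were seen. Against dHet pro-B cells, 16 of 22 were called in the same direction, 0 in the opposite one and 6 not. With the mean of all kept probes per gene, 38 genes were higher than in wt (27.6% of all genes), and Psma3 (-0.08), Psmc2 (0.07) and Psmd14 (0.07) were not called.

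Promoters were searched for 3 motifs on both strands, since Nfe2l1, the factor that raises proteasome genes when the proteasome is blocked, binds antioxidant response elements, Myc binds the E-box, and interferon acts through response elements. Of the 49 genes, 41 had a promoter in the RefSeq table (GRCm38.p6, 250 bases before to 50 after the start). The antioxidant element core TGACNNNGC was in 6 of 41 genes (14.6%), against 14% of 27025 genes. The E-box CACGTG was in 4 (9.76%), against 8.09%. The core of the interferon-stimulated response element was in 5 (12.2%), against 3.99%, in Psmb3, Psmd4, Psmd9, Psme1 and Psmg4. Of the promoters of Psmb8, Psmb9, Psmb10, Psme1 and Psme2, only that of Psme1 held it. The promoters of Psmb5 and Psmb6, both holding the antioxidant element core, and of Psme1 are shown with the match in capitals, in Psme1 on the reverse strand. They lie at chr14:54617946-54618245 (Psmb5, minus strand), chr11:70525107-70525406 (Psmb6, plus strand) and chr14:55578244-55578543 (Psme1, plus strand).
Psmb5: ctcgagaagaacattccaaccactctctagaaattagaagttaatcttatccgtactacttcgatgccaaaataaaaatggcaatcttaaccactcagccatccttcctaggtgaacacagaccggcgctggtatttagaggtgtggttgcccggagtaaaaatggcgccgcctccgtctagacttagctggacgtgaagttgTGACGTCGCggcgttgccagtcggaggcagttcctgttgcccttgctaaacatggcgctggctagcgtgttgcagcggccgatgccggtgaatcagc
Psmb6: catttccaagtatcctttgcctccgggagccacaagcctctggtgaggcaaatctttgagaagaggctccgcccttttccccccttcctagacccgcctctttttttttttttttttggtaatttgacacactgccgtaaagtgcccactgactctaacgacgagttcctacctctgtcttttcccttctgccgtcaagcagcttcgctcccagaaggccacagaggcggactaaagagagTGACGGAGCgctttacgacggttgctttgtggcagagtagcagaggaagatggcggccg
Psme1: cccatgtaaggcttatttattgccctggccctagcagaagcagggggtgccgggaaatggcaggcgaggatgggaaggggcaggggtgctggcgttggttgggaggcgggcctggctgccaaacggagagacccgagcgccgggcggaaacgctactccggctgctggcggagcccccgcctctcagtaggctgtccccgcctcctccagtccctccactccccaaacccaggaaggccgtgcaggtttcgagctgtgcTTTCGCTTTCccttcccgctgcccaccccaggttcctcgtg

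The match starts 47 bases before the annotated start in Psmb5, 9 before it in Psmb6 and at base 10 after it in Psme1. A match is a description of letters and shows no binding.

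Of 26 cofactors and regulators of the proteasome, 14 were higher and 2 lower in leukemias than in wt pro-B cells, with a median of 0.51, where 31.2% and 27.5% of all genes were called. Relative to dHet pro-B cells 9 were higher and 3 lower, where 21.7% and 24.4% of all genes were called. The largest rises against wt were Ngly1, which removes sugars from Nfe2l1 (2.17 ± 0.14), and the deubiquitinases of the cap Uchl5 (1.98 ± 0.15) and Usp14 (1.85 ± 0.16). Ddi2, the protease that activates Nfe2l1, was among the lower ones (-0.41 ± 0.12). Nfe2l2 was among those lower than in dHet pro-B cells (-0.55). In dHet pro-B cells 5 of the 26 were higher than in wt cells, led by Nfe2l2 (1.14 ± 0.22), where 16.7% of all genes were.

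Of 8 regulators of the inducible subunits, 1 was higher and 1 lower in leukemias than in wt pro-B cells, with a median of -0.51. Over all genes, 31.2% were called higher and 27.5% lower in this comparison. Ifngr1, a chain of the interferon gamma receptor, was the higher one (1.94 ± 0.12, adjusted p = 0.000297), and Irf1, which drives the inducible subunits, was the lower one (-1.12 ± 0.19, adjusted p = 0.00417). Irf1 had levels of 3.71 to 4.52 in leukemias, 4.5 and 4.53 in dHet pro-B cells, and 5.12 and 5.15 in wt pro-B cells. Against dHet pro-B cells only Ifngr1 was called (0.90 ± 0.12), where 21.7% of all genes were called higher and 24.4% lower. In dHet against wt pro-B cells Irf8 (-2.34 ± 0.42) and Irf1 (-0.62 ± 0.19) were lower and Ifngr1 higher (1.04 ± 0.19). Of 10 genes of MHC class I peptide loading, 4 were higher in leukemias than in wt, where 31.2% of all genes were. They were led by Pdia3 (1.92) and Canx (1.77), which help fold MHC class I, and Erap1 (1.78), which trims peptides. H2-K1 was lower, at -0.82 ± 0.20. Relative to dHet pro-B cells 4 were higher and 0 lower, where 21.7% of all genes were higher and 24.4% lower. The higher ones were led by Calr (2.27), Pdia3 (1.68) and Erap1 (1.11). In dHet against wt pro-B cells Canx (0.91) and Erap1 (0.67) were higher and H2-K1 (-1.21) and Calr (-1.16) lower. Tap1, the neighbour of Psmb8 and Psmb9, was not called in leukemias against wt (0.08 ± 0.41), in leukemias against dHet (-0.20 ± 0.41) or in dHet against wt pro-B cells (0.29 ± 0.46).

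Markers of other blood cells differed between the groups as well. Of 8 T cell markers, 5 to 7 were well above background on leukemia arrays, 3 or 4 on dHet and 4 or 5 on wt arrays, with the log2 of their summed intensities, relative to the 75th percentile, at 3.75 to 6.05 in leukemias, 3.32 to 3.71 in dHet and 1.78 to 1.92 in wt pro-B cells. Cd4 was at background on all arrays. Cd3d, well above background on all 6 leukemia arrays and on 1 array of each pro-B group, was called higher than in wt (adjusted p = 0.00095) and dHet pro-B cells (adjusted p = 0.00145). Cd8b1 was 1.97 ± 0.41 above wt (adjusted p = 0.00902), and Cd8a and Cd8b1 were called above dHet pro-B cells, where both were at background. Thy1 (3.78 ± 0.88) and Lck (2.6 ± 0.50) were above wt but were not called against dHet pro-B cells (adjusted p = 0.16 and 0.342). Cd8a (0.78 ± 0.44) and Cd3e (0.41 ± 0.58) were not called against wt. Cd3e was not called against dHet pro-B cells either, at -1.03 ± 0.58. Summed levels of 5 NK cell markers were 1.98 to 5.35 in leukemias, 0.36 to 1.02 in dHet and 0.72 to 0.88 in wt cells. Ncr1 was at background on all arrays, and Nkg7 was higher in leukemias than in wt (4.10 ± 1.11, adjusted p = 0.0226). Klrb1c (0.05 ± 0.65), Gzma (1.84 ± 1.16) and Prf1 (-0.16 ± 0.65) were not called against wt. No NK cell marker was called against dHet pro-B cells. Of 9 myeloid and dendritic markers the summed levels were 3.67 to 7.05 in leukemias, 4.24 to 4.41 in dHet and 6.22 to 7.2 in wt pro-B cells. Elane was at background on all arrays. Csf1r (2.86 ± 0.82) and Flt3 (2.43 ± 0.81) were higher in leukemias than in wt. S100a9 (-5.18 ± 1.71), Mpo (-3.93 ± 0.73) and Itgam (-1.47 ± 0.46) were lower than in wt. Relative to dHet pro-B cells, where Csf1r was at background, Csf1r was higher (5.58 ± 0.82) and Itgam lower (-1.46 ± 0.46). Of 4 erythroid markers the summed levels were 0.11 to 6.45 in leukemias, -3.25 to -2.57 in dHet and 0.38 to 0.84 in wt pro-B cells, with Klf1 at background on all arrays. Hba-a1 (adjusted p = 0.00569) and Alas2 (adjusted p = 0.0258) were called higher in leukemias than in dHet pro-B cells, where both were at background. Of 6 stroma and feeder markers the summed levels were -1.89 to -0.03 in leukemias, -2.17 to -2.04 in dHet and 0.46 to 1.30 in wt pro-B cells. Col1a1 was at background on all arrays. Vcam1 was lower in leukemias than in wt (-2.63 ± 0.70). It was higher than in dHet pro-B cells (3.91 ± 0.70), where it was at background. The part of these cells in the proteasome changes was not tested.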

How the data were processed

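RNA was measured on one-colour Agilent mouse arrays. Per the file headers, Feature Extraction 10.5.1.1 gave each spot's processed intensity after background subtraction and detrending (the submitters' processing notes name 9.1), with mm9 positions, and its 0 or 1 flags. The log2 value table deposited by the authors was an alternative; its centring, background step and floor are unknown. Control spots and outlier flags were left out, spots of a probe averaged, and log2 intensity taken minus each array's 75th percentile. A probe was kept where every array of some group, of the 5, had it well above background; the brightest stood for its gene.

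limma 3.58.1 in R 4.3.3, over 14456 genes with Benjamini-Hochberg adjustment at 0.05, compared leukemias (mean of 2 arrays a mouse) with pro-B arrays (7 samples, 4 residual degrees of freedom). Pro-B groups, and the leukemias with each other, were compared over 10 arrays. In data simulated for leukemias against wt pro-B over 14456 genes, 11% of changes of 1 and 72% of changes of 2 on the log2 scale were recovered, with 8.8% of calls false. That simulation changed few genes and held no spread between mice, whereas 58.7% of genes were called in the data. Its shares therefore do not measure the recovery or the false calls of the real comparison. Genes named with values were the paired subunits, Psme1, Psme2, Psma8, Psmb11 and the 3 largest changes a class and direction; uncalled members and others outside this were named after their values were seen. Members and lists were chosen with earlier results of these data known. Same-numbered replicates correlated at 0.44 to 0.63 among leukemias and at -0.03 to 0.08 elsewhere, so the number was not used as a block. Alternatives covered background, scaling, filter, probe choice, blocks and left-out arrays. Fits with a block took the 10 arrays singly, so their leukemia comparisons were read against array spread and not spread between mice. The comparison within scan day 2 was chosen after seeing the data. Some genes of the related lists are not reported here.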

Additional observations from a re-analysis of the deposited data

Results flagged for a closer look

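Among the 3 leukemias, Psma8 differed (limma F test, adjusted p = 0.017), with levels of 2.17 and 2.11 in leukemia 686, -2.03 and -6.48 in 713 and -4.36 and -4.21 in 760. Psmg1 differed as well (adjusted p = 0.0315), with 1.90 and 1.81 in leukemia 713 and 2.47 to 2.67 in the others. The difference of Psmb9 minus Psmb6 differed among the 3 leukemias at an adjusted p of 0.0428, lowest in leukemia 686.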

How the results depend on the processing

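Higher calls against wt pro-B cells numbered 30 to 45 of 48 over the other settings and 36 to 44 with an array or a mouse left out. Against dHet pro-B cells they fell to 18 with normexp (10.9% of all genes) and 14 with the slide block, and were 20 to 35 with a sample left out. Lower calls were 2 against wt with the authors' value table or the mean of probes, and 2 against dHet with scaling on all-detected probes. Between the pro-B groups, limma gave 0 higher and 0 lower with normexp (0 and 0 unadjusted) and 0 and 0 with no filter (5 and 1 unadjusted). There were 2 higher and 0 lower with array median scaling (12 and 0 unadjusted), 2 and 2 with scaling on all-detected probes, and 2 and 3 with the authors' table. Lower calls were 2 with quantile normalization and with the filter on all 10 arrays, and both the slide and the scan day block gave 19 higher and 2 lower. With an array left out there were 0 to 4 higher and 0 to 1 lower. Among the leukemias, 0 genes differed with normexp and 0 with no filter (2 unadjusted in each), 1 with array median scaling, 4 with the authors' table, 10 with either block, and 1 without any array. The mean of the pairs moved by -0.28 to 0.04 against wt, 0.15 to 0.47 against dHet and -0.49 to -0.39 between pro-B groups with a sample left out. It was called between pro-B groups with quantile normalization (-0.50), the authors' table (-0.56) and either block (-0.44), and against dHet with the scan day block (0.36). The replicate block left 43, 32 and 5 higher calls against wt, against dHet and between pro-B groups, and changed no call of the pair mean (-0.17, 0.27 and -0.44). With that block Psmb8 minus Psmb5 was called against wt (adjusted p = 0.0221) and dHet (adjusted p = 0.00876), and Psmb9 minus Psmb6 against dHet (adjusted p = 0.0318). That fit, too, took the arrays singly and not by mouse. Among leukemias the number marks slide and scan day; between leukemias and pro-B cells it paired no samples.

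Of 1737 alternative values of 70 named changes, 22 changed sign. Between pro-B groups these were Psmb8 at 0.01 (normexp), 0.32 (array median) and 0.03 (mean of probes), Psme1 at 0.06, 0.34 and 0.02 (normexp, array median, without dHet replicate 2), Psmb9 at 0.21 (array median), and Psmf1 at -0.16 (mean of probes). Psmb5 was at -0.17, -0.09 and -0.11 and Psmb6 at -0.10, -0.01 and -0.07 with quantile normalization, scaling on all-detected probes and the authors' table. Psma3 against wt was -0.08 with the mean of probes. Against dHet, Psmb10 minus Psmb7 was 0.03 and Psma8 -0.25 with the scan day block and within scan day 2. Psma8 was -0.26 against dHet without replicate 1 of leukemia 713, and without leukemia 686 it was -0.90 against wt and -1.66 against dHet. The causes were not tested. Without leukemia 760, Psma8 was 2.32 against wt and 1.55 against dHet, and without dHet replicate 1 Psme1 was -0.04. Dim probes such as Psma8 limit precision.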
